A study of Homo sapiens with 8 samples.

Results

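The 10 genes described are brakes on MAP kinase signalling: 3 Sprouty genes (SPRY1, SPRY2, SPRY4), 2 Sprouty-related SPRED genes (SPRED1, SPRED2) and 5 dual-specificity phosphatases (DUSP2, DUSP4, DUSP5, DUSP6, DUSP10). They were chosen by name, as the rows of the deposited table annotated with those symbols, and all 10 were found, each as 1 transcript cluster with 1 symbol, among 17881 clusters in all. A transcript cluster is the set of exon probes that the array design summarises as 1 gene. The samples were cells labelled RS4;11, a human line from a B-precursor leukemia, transduced with an shRNA vector. The 4 groups were the BTG1 shRNA vector with prednisolone, the BTG1 shRNA vector with vehicle, the control shRNA vector with prednisolone, and the control shRNA vector with vehicle, each after 8 h of exposure. Each group had 2 arrays of the Affymetrix Human Exon design. Prednisolone is a glucocorticoid used against this leukemia, and BTG1 is an antiproliferative gene whose product has been described as a coactivator of the glucocorticoid receptor. The labels used here give neither the dose of prednisolone, nor the promoter of the vectors, nor whether transduced cells were pooled or cloned.

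MAP kinase cascades carry signals from growth factor, cytokine and antigen receptors through Ras, RAF and MEK to ERK, and through parallel kinases to p38 and JNK. Sprouty and SPRED proteins act upstream, where they restrain the activation of Ras and RAF, and dual-specificity MAP kinase phosphatases act at the end, where they remove the activating phosphates from the kinases themselves. Several of these genes are transcribed in response to ERK activity and so form negative feedback loops, which are known to be active in precursor B-cell leukemia. Glucocorticoids are known in other cells to induce a further phosphatase of this family, DUSP1.

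All values are log2 expression levels after restoring lost decimal points in the deposited table. The BTG1 cluster, annotated BTG1 and LINC01619, read 8.14 and 7.80 on the arrays labelled BTG1 shRNA with prednisolone and 7.15 and 7.42 with vehicle, against 10.51 and 10.70 on control shRNA arrays with prednisolone and 9.34 and 9.36 with vehicle. It was lower under the BTG1 label by a log2 difference of -2.06 under vehicle (SE 0.20, limma adjusted p 0.000388). The labelled cell type was checked against its markers. The 9 measured of 10 B-lineage markers averaged 4.46 to 4.64 on the 4 arrays labelled BTG1 shRNA, against 8.77 to 9.44 on the 4 control shRNA arrays. The 10 T-lineage markers averaged 8.76 to 9.06 against 4.49 to 5.22. CD2, a T-lineage marker of that list, did not follow, with 2.83 to 3.02 under the BTG1 label against 2.86 to 3.16. The arrays labelled BTG1 shRNA thus went against the B-precursor label, and NR3C1, which encodes the glucocorticoid receptor, was lower on them by a log2 difference of -2.53 under vehicle (adjusted p 0.000733). In every contrast between the labels, that of BTG1 above included, the shRNA and the lineage profile cannot be told apart. The myeloid markers averaged 3.63 to 4.02 on the arrays labelled BTG1 shRNA against 3.78 to 4.51 on control shRNA arrays. The erythroid and platelet markers averaged 3.81 to 4.35 against 4.24 to 4.77, and the stromal and epithelial markers 5.60 to 5.96 against 5.33 to 6.18. Whether the 2 arrays of each group stand for separate cultures is not said in the labels, and the p-values here cover only array-to-array spread, possibly technical. Control vehicle array 1 exceeded array 2 by a median of 0.52 among clusters of low level (25th to 50th percentile of mean level), and the median was -0.31 among those above the 75th percentile, while all such medians lay between -0.12 and 0.22 in the other 3 groups.

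The table carries no detection calls, so a low value is not shown to be above background, and its log2 difference can understate a change. SPRY4 stayed at or below the 19.6th percentile of all clusters on every array, and DUSP4 lay between the 24.6th and the 32.8th. SPRY1 on the control vehicle arrays lay at the 34.0th and 28.5th percentiles. DUSP6 on the arrays labelled BTG1 shRNA lay between the 25.8th and 26.9th percentiles. DUSP2 was at the other end, with percentiles from 62.7 to 87.1 over all arrays. These percentiles place a signal among all clusters and do not compare RNA amounts between genes, because probes differ in their response.

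**Figure D1:**
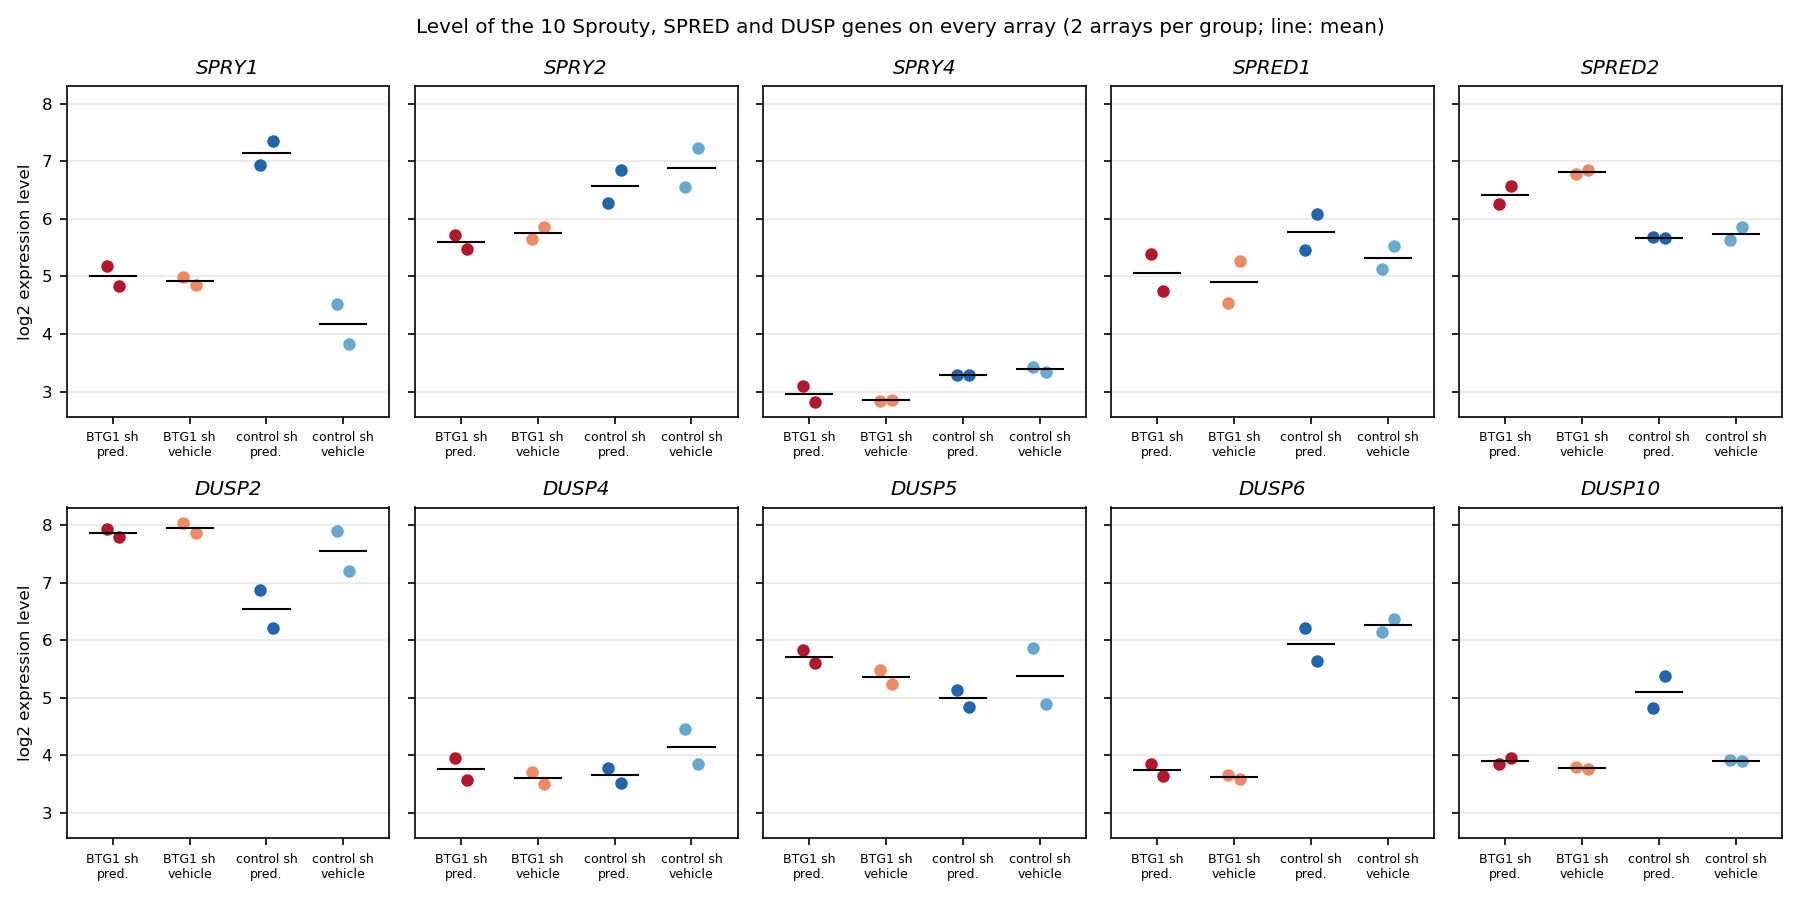
Level of each of the 10 genes on every array (vertical axis, log2 expression level), by group along the horizontal axis, with 2 points for the 2 arrays of a group and a line at their mean. SPRY1 and DUSP10 stand apart on the control prednisolone arrays, and DUSP6 lies between 3.59 and 3.85 on all arrays labelled BTG1 shRNA, against 5.65 to 6.37 on all control arrays.

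The sequences just upstream of 3 of the genes are given first, because SPRY1 and DUSP10 were the members that rose with prednisolone in control cells and DUSP6 was the member that differed between the labels under both treatments by over 2 log2 units. Each is the 250 bases before a RefSeq start on GRCh38.p14, written along the strand of the gene, 5′ to 3′. Capitals mark letters matching any of 7 searched motifs on either strand. SPRY1 has 2 annotated starts, at chr4:123396545-123396794 and chr4:123398136-123398385 on the plus strand. DUSP10 has 2, at chr1:221742090-221742339 and chr1:221736901-221737150 on the minus strand. DUSP6 has 1, at chr12:89352502-89352751 on the minus strand.
SPRY1 start 1: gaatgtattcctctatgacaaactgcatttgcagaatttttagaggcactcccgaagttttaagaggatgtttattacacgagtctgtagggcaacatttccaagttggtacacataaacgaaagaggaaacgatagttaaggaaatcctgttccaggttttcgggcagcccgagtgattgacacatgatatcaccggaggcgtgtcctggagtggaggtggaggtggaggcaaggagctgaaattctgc
SPRY1 start 2: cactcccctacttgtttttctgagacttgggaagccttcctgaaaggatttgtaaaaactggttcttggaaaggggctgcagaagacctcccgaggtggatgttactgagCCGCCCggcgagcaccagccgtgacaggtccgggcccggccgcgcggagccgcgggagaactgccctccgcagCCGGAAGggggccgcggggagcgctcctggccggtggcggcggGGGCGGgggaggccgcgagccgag
DUSP10 start 1: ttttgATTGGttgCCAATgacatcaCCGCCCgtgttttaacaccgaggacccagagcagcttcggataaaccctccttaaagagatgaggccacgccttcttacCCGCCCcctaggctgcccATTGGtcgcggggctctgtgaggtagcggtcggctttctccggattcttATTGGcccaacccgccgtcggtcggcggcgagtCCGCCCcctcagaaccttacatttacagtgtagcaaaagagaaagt
DUSP10 start 2: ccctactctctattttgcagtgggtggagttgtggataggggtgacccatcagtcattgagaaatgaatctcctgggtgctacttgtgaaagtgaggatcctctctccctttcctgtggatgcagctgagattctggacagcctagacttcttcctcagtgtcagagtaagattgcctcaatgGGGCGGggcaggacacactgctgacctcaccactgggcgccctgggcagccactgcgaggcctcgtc
DUSP6: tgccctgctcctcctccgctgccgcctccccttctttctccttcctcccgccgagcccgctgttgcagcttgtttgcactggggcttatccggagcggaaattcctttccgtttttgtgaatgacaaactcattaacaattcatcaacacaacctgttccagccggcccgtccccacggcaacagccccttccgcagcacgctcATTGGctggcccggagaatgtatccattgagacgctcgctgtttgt

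The motifs searched were a relaxed glucocorticoid receptor palindrome, the receptor hexamer AGAACA, the full cyclic AMP response element, the ETS core CCGGAAG, the GC box GGGCGG, the CCAAT box CCAAT and the TATA box TATAAA. The hexamer can overlap the palindrome. The palindrome was in 0.327% of all 35116 windows of this length, the hexamer in 12.4%, the cyclic AMP element in 1.65%, the ETS core in 8.52%, the GC box in 42.6%, the CCAAT box in 32.0% and the TATA box in 10.7%. Neither window of SPRY1 or DUSP10 held the letters of the palindrome or the hexamer. The second SPRY1 window held 1 ETS core and 2 GC boxes, and the first held none of the 7 motifs. The first DUSP10 window held 4 CCAAT boxes and 3 GC boxes, the second 1 GC box, and the DUSP6 window 1 CCAAT box. The hexamer was found at 2 of the 3 SPRY2 starts and in no window of SPRY4, SPRED1, SPRED2 or DUSP2. A match describes the letters only, and its absence says only that those letters are not in that window.

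In control shRNA cells, prednisolone was followed by a higher level of 2 of the 10 brakes, SPRY1 and DUSP10, and 8 did not pass the test. Over all clusters, 1.52% passed in either direction and 0.928% were higher. The 10 genes were listed with earlier results of these data known, so the count beside these shares is descriptive. SPRY1, a Sprouty protein that limits Ras-ERK signalling downstream of receptor tyrosine kinases, read 6.94 and 7.35 on control prednisolone arrays, against 4.53 and 3.82 on control vehicle arrays. The groups did not overlap, and the gap between them was larger than the spread within either. How many of all clusters did not overlap was not counted, so remarks on overlap only describe the arrays. The log2 difference was 2.97 (SE 0.28, 95% interval 2.32 to 3.63, limma adjusted p 0.00506). DUSP10, a phosphatase that prefers p38 and JNK to ERK, read 4.83 and 5.39 with prednisolone, against 3.92 and 3.90 with vehicle. Here too both prednisolone arrays lay above both vehicle arrays, and the vehicle arrays were low, at the 23.4th and 29.8th percentiles of all clusters. The log2 difference was 1.20 (SE 0.22, 95% interval 0.70 to 1.70, limma adjusted p 0.0475).

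DUSP10 was close to the threshold, and its call was kept under 3 of 13 alternatives, with adjusted p from 0.0235 to 0.355. The call was lost after quantile normalization (0.0632), after centring (0.0741), when the 4 control arrays were fitted alone (0.261), without control prednisolone array 2 (0.355), with either control vehicle array left out (0.132 and 0.0521), and with any array labelled BTG1 shRNA left out (0.0992 to 0.120). The SPRY1 call was kept under 11 of 13 and ended at 0.0511 without control prednisolone array 2 and at 0.0509 when the 4 control arrays were fitted alone.

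The phosphatase DUSP2, an inducible nuclear enzyme first described in activated lymphocytes, was the third member with a difference of over 2-fold, a size that 5.26% of all clusters exceeded. It read 6.87 and 6.21 on control prednisolone arrays, against 7.90 and 7.21 on control vehicle arrays. The groups did not overlap, and the arrays within each group were 0.66 and 0.69 apart. The log2 difference of -1.02 did not pass (SE 0.30, limma adjusted p 0.190). The other 7 brakes had log2 differences between -0.50 and 0.44, none of which passed. DUSP5, a nuclear phosphatase selective for ERK, read 5.14 and 4.85 against 5.87 and 4.89, so its groups overlapped. DUSP6, a cytoplasmic phosphatase selective for ERK and the usual readout of ERK feedback, read 6.22 and 5.65 with prednisolone, against 6.15 and 6.37 with vehicle, so its groups overlapped and its log2 difference was -0.33 (adjusted p 0.482). The 95% interval of DUSP6 ran from -0.87 to 0.20. DUSP4, a nuclear phosphatase, had the lowest of these 7 differences, at -0.50 (adjusted p 0.424), at levels from 3.53 to 4.45.

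Among the inhibitors that act upstream, SPRY2, the Sprouty protein most often studied as a feedback inhibitor of receptor tyrosine kinases, read 6.28 and 6.85 with prednisolone, against 6.56 and 7.23 with vehicle. SPRED1, which brings neurofibromin to the membrane to switch Ras off, read 5.46 and 6.08, against 5.12 and 5.52. The groups overlapped for both genes, and the log2 differences were -0.32 (adjusted p 0.527) and 0.44 (adjusted p 0.506). SPRED2, its close relative, read 5.68 and 5.67 against 5.64 and 5.85, and SPRY4 read 3.29 and 3.28 against 3.42 and 3.35. The log2 differences of SPRED2 and SPRY4 were -0.07 and -0.10, and both turned positive when the arrays were quantile normalized or centred. The median difference over the 10 genes was -0.21, beside -0.16 over all clusters, which moved to -0.05 after quantile normalization.

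**Figure D2:**
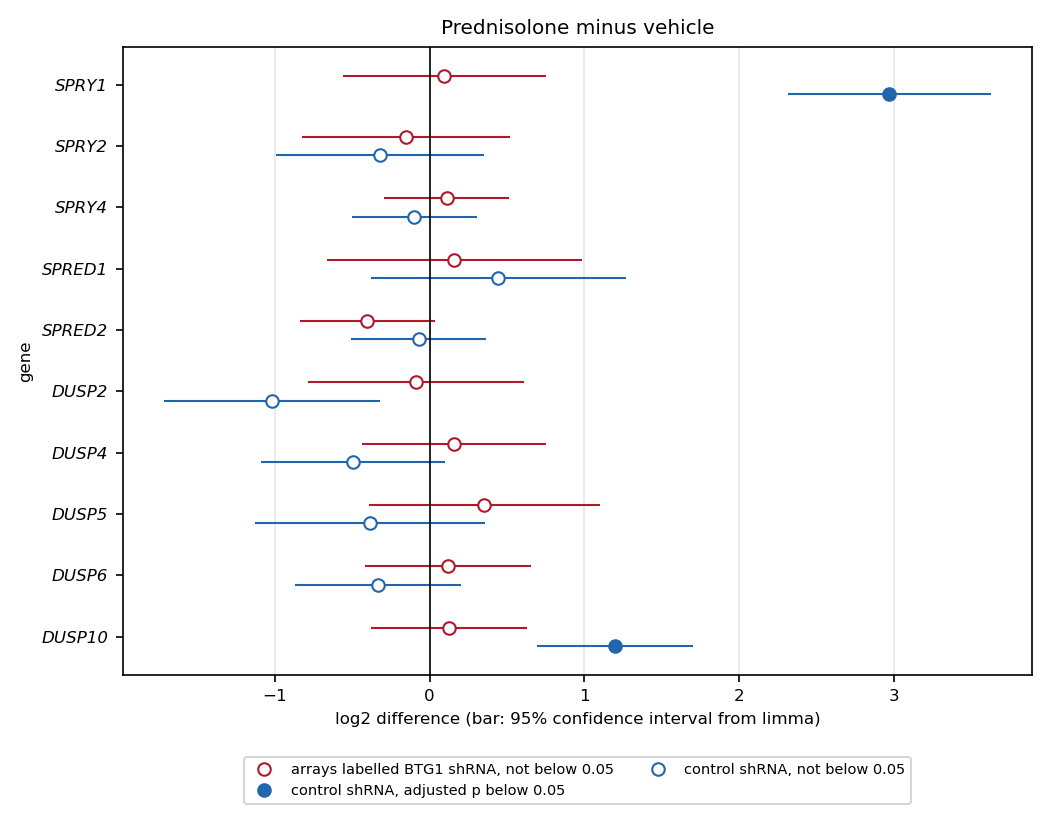
Log2 difference of prednisolone minus vehicle (horizontal axis) for each gene (vertical axis) on the arrays labelled BTG1 shRNA and in control shRNA cells, with bars for limma's 95% interval and filled points where the adjusted p was below 0.05. SPRY1, at 2.97, and DUSP10, at 1.20, are the filled points, both in control shRNA cells, and all differences on the arrays labelled BTG1 shRNA lie between -0.40 and 0.35.

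On the arrays labelled BTG1 shRNA, none of the 10 brakes passed the test between prednisolone and vehicle. No cluster in the table passed limma's test there either (0%). Of 17881 clusters, 186, none of them among the 10 genes, had an unadjusted p below 0.05, a smaller share than 0.05. With the contrast's arrays fitted alone, 470 did. The main fit shares 1 spread over all groups, and replicates differed by a median of 0.44 in control vehicle, against 0.18 and 0.25 under the BTG1 label. The p-values of this contrast can therefore be too large. SPRY1 read 5.19 and 4.84 with prednisolone, against 4.99 and 4.85 with vehicle, and its groups overlapped. Its log2 difference was 0.10 with a 95% interval from -0.56 to 0.75, which does not reach the 2.32 that bounds the SPRY1 difference in control cells from below. DUSP10 read 3.86 and 3.95, against 3.80 and 3.76, a log2 difference of 0.13 with an interval from -0.38 to 0.63. Both DUSP10 groups sat near the level of the control vehicle arrays. DUSP2 read 7.93 and 7.80, against 8.05 and 7.86. DUSP5 had the highest difference of the 10, at 0.35, with 5.83 and 5.60 against 5.48 and 5.23. SPRED2 had the lowest, at -0.40, with 6.25 and 6.57 against 6.78 and 6.85. For DUSP5, SPRED2 and DUSP10 the treated and vehicle arrays did not overlap, and none of them passed (adjusted p 1.00 for each of the 10). The share of all clusters without overlap was not counted. The median over the 10 genes was 0.11, beside 0.03 over all clusters.

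The difference between the prednisolone effects was tested directly, as the effect on arrays labelled BTG1 shRNA minus the effect in control shRNA cells. Of the 10 genes, 0 passed limma's adjusted threshold, where 0.134% of all clusters did, 5 of them higher and 19 lower (12 and 24 after quantile normalization). SPRY1 and DUSP10 had an unadjusted p below 0.05 in this moderated test, as did 1664 of all 17881 clusters. For SPRY1 the difference of effects was -2.88 (SE 0.40, 95% interval -3.80 to -1.95), with a limma adjusted p of 0.0705. It passed after quantile normalization (0.0212), with a mean-dependent spread (0.0404), with the replicate number as a block (0.0357) and without control vehicle array 1 (0.0484), over a range of 0.0212 to 0.367 across the alternatives. DUSP10 had a difference of -1.07 (SE 0.30, adjusted p 0.379) and DUSP2 one of 0.93 (SE 0.42, adjusted p 0.537). The other 7 genes lay between -0.33 and 0.74. None of these 7 passed. The number of arrays, 2 a group, limits the precision of all these values.

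Between the labels under vehicle, 3 of the 10 brakes passed: DUSP6 and SPRY2 were lower on the arrays labelled BTG1 shRNA and SPRED2 was higher. Of all clusters, 14.7% passed in either direction, so a sizeable share of the table differed between these arrays. DUSP6 read 3.67 and 3.59 on the arrays labelled BTG1 shRNA with vehicle, against 6.15 and 6.37 on control vehicle arrays. The groups were far apart and the arrays within each differed by no more than 0.22. The log2 difference was -2.63 (SE 0.23, 95% interval -3.17 to -2.10, limma adjusted p 0.000249), and it passed under all 13 alternatives. In these RNAs from whole cultures, fewer cells that express a gene and less RNA per cell cannot be told apart.

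SPRY2 read 5.65 and 5.85 on the arrays labelled BTG1 shRNA, against 6.56 and 7.23 on control vehicle arrays. Both values under the BTG1 label were lower than both controls, with a log2 difference of -1.14 (SE 0.29, limma adjusted p 0.0368). The SPRY2 call was kept under 7 of 14 alternatives, with adjusted p from 0.0144 to 0.186, and was lost after centring (0.100), when the 4 vehicle arrays were fitted alone (0.0680), without control vehicle array 2 (0.0631) and without any single array labelled BTG1 shRNA (0.0581 to 0.186). SPRED2 read 6.78 and 6.85, against 5.64 and 5.85, so all arrays under the BTG1 label were higher. Its log2 difference was 1.07 (SE 0.19, limma adjusted p 0.00746), and it missed the threshold only without BTG1-labelled vehicle array 1 (0.0532) or 2 (0.0760). The 2 SPRED genes thus had differences of opposite sign, since SPRED1 read 4.54 and 5.27 against 5.12 and 5.52, a log2 difference of -0.42 that did not pass (adjusted p 0.418).

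Of the 7 brakes that did not pass under vehicle, SPRY4 had the lowest adjusted p. It read 2.83 and 2.86 on the arrays labelled BTG1 shRNA, against 3.42 and 3.35 on control vehicle arrays, all near the bottom of the scale (log2 difference -0.54, adjusted p 0.0845), and it passed with a mean-dependent spread (0.0208). SPRY1 read 4.99 and 4.85, against 4.53 and 3.82, and did not overlap, with a difference of 0.74 (adjusted p 0.134). That SPRY1 value passed after quantile normalization (0.0170) and without control vehicle array 1 (0.0364). DUSP4 had a log2 difference of -0.54 (adjusted p 0.215), and -0.84 (0.0405) without control vehicle array 2. DUSP2 had a difference of 0.40, DUSP10 one of -0.13 and DUSP5 one of -0.02. The median over the 10 genes was -0.27, beside -0.15 over all clusters.

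Under prednisolone, 5 of the 10 brakes passed between the labels, SPRY1, DUSP6 and DUSP10 lower and DUSP2 and SPRED2 higher on the arrays labelled BTG1 shRNA, where 17.5% of all clusters passed in either direction. This contrast shares its control prednisolone arrays with the prednisolone contrast in control cells, so the values of SPRY1, DUSP10 and DUSP2 are not separate evidence. SPRY1 read 5.19 and 4.84 on the arrays labelled BTG1 shRNA, against 6.94 and 7.35 on control prednisolone arrays, a log2 difference of -2.13 (SE 0.28, limma adjusted p 0.00164). Its sign was therefore opposite to that under vehicle. DUSP10 read 3.86 and 3.95, against 4.83 and 5.39 (log2 difference -1.20, SE 0.22, limma adjusted p 0.00704). DUSP2 read 7.93 and 7.80, against 6.87 and 6.21 (log2 difference 1.33, SE 0.30, limma adjusted p 0.0197). For SPRY1, DUSP10 and DUSP2 the arrays did not overlap between the labels.

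DUSP6 stood out in the same way as under vehicle, with 3.85 and 3.65 on the arrays labelled BTG1 shRNA, against 6.22 and 5.65 on control prednisolone arrays. Its log2 difference was -2.18 (SE 0.23, limma adjusted p 0.000535). SPRED2 read 6.25 and 6.57, against 5.68 and 5.67, a smaller difference of 0.74 (SE 0.19, limma adjusted p 0.0321). SPRY2, which passed under vehicle, read 5.72 and 5.48 against 6.28 and 6.85 and did not pass here (log2 difference -0.97, adjusted p 0.0583), although both values under the BTG1 label were again the lower ones. DUSP5 read 5.83 and 5.60, against 5.14 and 4.85, did not overlap and did not pass (log2 difference 0.72, adjusted p 0.198). The remaining differences were -0.71 for SPRED1, -0.33 for SPRY4 and 0.11 for DUSP4, and the median over the 10 genes was -0.52, beside 0.04 over all clusters.

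SPRY1 and DUSP6 passed in this contrast under all 13 alternatives. The calls of the other 3 genes depended on single arrays. DUSP10 lost its call without control prednisolone array 2 (0.0513) or BTG1-labelled prednisolone array 1 (0.0527). The call was lost for DUSP2 after quantile normalization (0.0629), without control prednisolone array 2 (0.136) or either BTG1-labelled prednisolone array (0.107 and 0.0749). It was lost for SPRED2 after centring (0.132), with a mean-dependent spread (0.0943) or without any 1 of 6 arrays, the control prednisolone arrays and all 4 labelled BTG1 shRNA (0.0606 to 0.195). SPRY2, which had not passed, did so after quantile normalization (0.0296), above the median level (0.0431), when the 4 prednisolone arrays were fitted alone (0.0447), and when either control vehicle array was left out (0.0251). DUSP5 passed, at 0.0355, when either control vehicle array was left out.

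**Figure D3:**
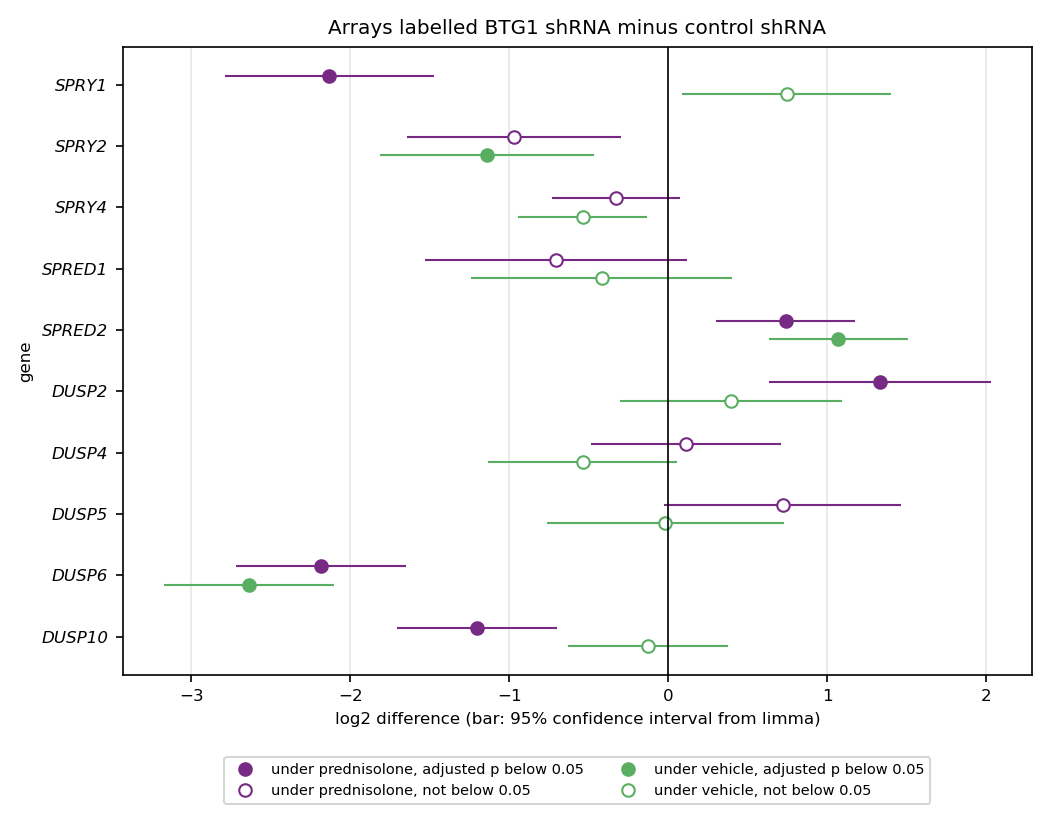
Log2 difference of the arrays labelled BTG1 shRNA minus control shRNA (horizontal axis) for each gene (vertical axis), under prednisolone and under vehicle, with bars for limma's 95% interval and filled points where the adjusted p was below 0.05. DUSP6 (-2.18 and -2.63) and SPRED2 (0.74 and 1.07) are filled under both treatments, while SPRY1 lies at -2.13 under prednisolone and at 0.74 under vehicle.

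The brakes sit among other genes of the same pathways, and 67 of 81 listed genes in 6 lists had a cluster. Of these 67, 3 passed with prednisolone in control cells (4.48%, beside 1.52% of all clusters). A count of 0 in a short list therefore says little about that list. The lists were chosen with earlier results of these data known, so their shares are descriptive. In control cells with prednisolone, 0 of 5 other MAP kinase phosphatases (DUSP1, DUSP7, DUSP8, DUSP9, DUSP16) passed, with a median log2 difference of -0.44. The gene at that median, DUSP8, read 6.50 and 6.08 with prednisolone, against 7.55 and 5.92 with vehicle, so its groups overlapped. DUSP1, the family member known as a glucocorticoid target, read 9.41 and 9.38 with prednisolone, against 9.53 and 9.59 with vehicle, a difference of -0.17 (adjusted p 0.548). Of 9 atypical DUSPs, which lack the kinase-binding domain of the classical enzymes, 0 passed. Of 8 other Ras inhibitors, only the GTPase-activating protein RASA2 passed, higher by 2.21 (adjusted p 0.0231), with 6.03 and 7.05 against 4.12 and 4.54. Of 13 genes of the p38 and JNK cascades, only MAP3K5 passed, a stress kinase upstream of p38 and JNK. It read 7.97 and 8.97, against 5.16 and 5.53, and was higher by 3.12 (adjusted p 0.00656). Of 14 genes of the Ras-ERK cascade, 0 passed. Of 18 genes known to be induced by ERK activity, 0 were higher and 1 was lower, the immediate early gene IER2, which read 5.44 and 5.16 with prednisolone, against 7.02 and 6.56 with vehicle (log2 difference -1.49, adjusted p 0.0433). The median of the ERK-induced genes was -0.46, beside -0.16 over all clusters. The genes around that median, EGR1 and PHLDA1, read 5.75 and 5.00, and 5.86 and 4.77, on control vehicle arrays 1 and 2. With prednisolone they read 5.09 and 4.67, and 5.00 and 4.78, so the groups overlapped for both. Control vehicle array 1 exceeded array 2 by a median of 0.52 among clusters of low level. How far the list medians depend on array 1 was not tested. None of these 3 calls was kept under every alternative: RASA2 reached an adjusted p of 0.119 and IER2 one of 0.367, while MAP3K5 missed the threshold only when the 4 control arrays were fitted alone (0.0509).

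On the arrays labelled BTG1 shRNA, 0 of the 67 genes passed between prednisolone and vehicle, as with all clusters. Shares of these lists only describe them, as they were chosen with earlier results of these data known, and enrichment was not tested. Between the labels, 20 of the 67 passed under prednisolone (29.9%, beside 17.5% of all clusters) and 11 under vehicle (16.4%, beside 14.7%). Of these, 9 and 4 kept their call under every alternative. DUSP1 was among these under both treatments, with 7.95 and 8.12 on the arrays labelled BTG1 shRNA with prednisolone against 9.41 and 9.38 on control prednisolone arrays (log2 difference -1.36, adjusted p 0.00110). Under vehicle it read 7.84 and 7.86, against 9.53 and 9.59 (log2 difference -1.71, adjusted p 0.000389). DUSP1 was thus lower beside DUSP6 under the BTG1 label. DUSP7 went the other way under prednisolone, higher by 0.96 (limma adjusted p 0.0240), a call kept under 10 of 14 alternatives. Of the 3 RASGRP exchange factors, which activate Ras and related GTPases, 1 was higher, 1 was lower and 1 did not pass. RASGRP1, the exchange factor known for linking the T-cell receptor to Ras, was higher by 3.53 under prednisolone and by 2.07 under vehicle, whereas RASGRP2, known from platelets and lymphocytes, had log2 differences of -2.11 and -2.42. RASGRP3 had log2 differences of 0.34 (adjusted p 0.280) and -0.11 (adjusted p 0.654). MAPK13, a p38 kinase, had differences of -1.57 and -1.56. Of the 9 atypical DUSPs, 2 passed higher and 3 lower under prednisolone, and 1 higher and 2 lower under vehicle. DUSP3 was higher by 1.61 under prednisolone (limma adjusted p 0.000602) and by 0.84 under vehicle (limma adjusted p 0.0161). DUSP19 was lower under prednisolone, with 2.86 and 2.69 on the arrays labelled BTG1 shRNA against 5.00 and 6.31 on control prednisolone arrays (log2 difference -2.88). Among the 18 ERK-induced genes, 0 passed under vehicle, and IER2, ETV5 and MYC were higher under prednisolone, by 2.15, 1.28 and 0.93, of which the IER2 call was kept under every alternative. Under vehicle these 3 differed by 0.26, 0.81 and 0.28. With prednisolone in control cells they differed by -1.49, -1.02 and -0.78. That contrast uses the same control prednisolone arrays, so the values under prednisolone are not separate evidence.

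**Figure D4:**
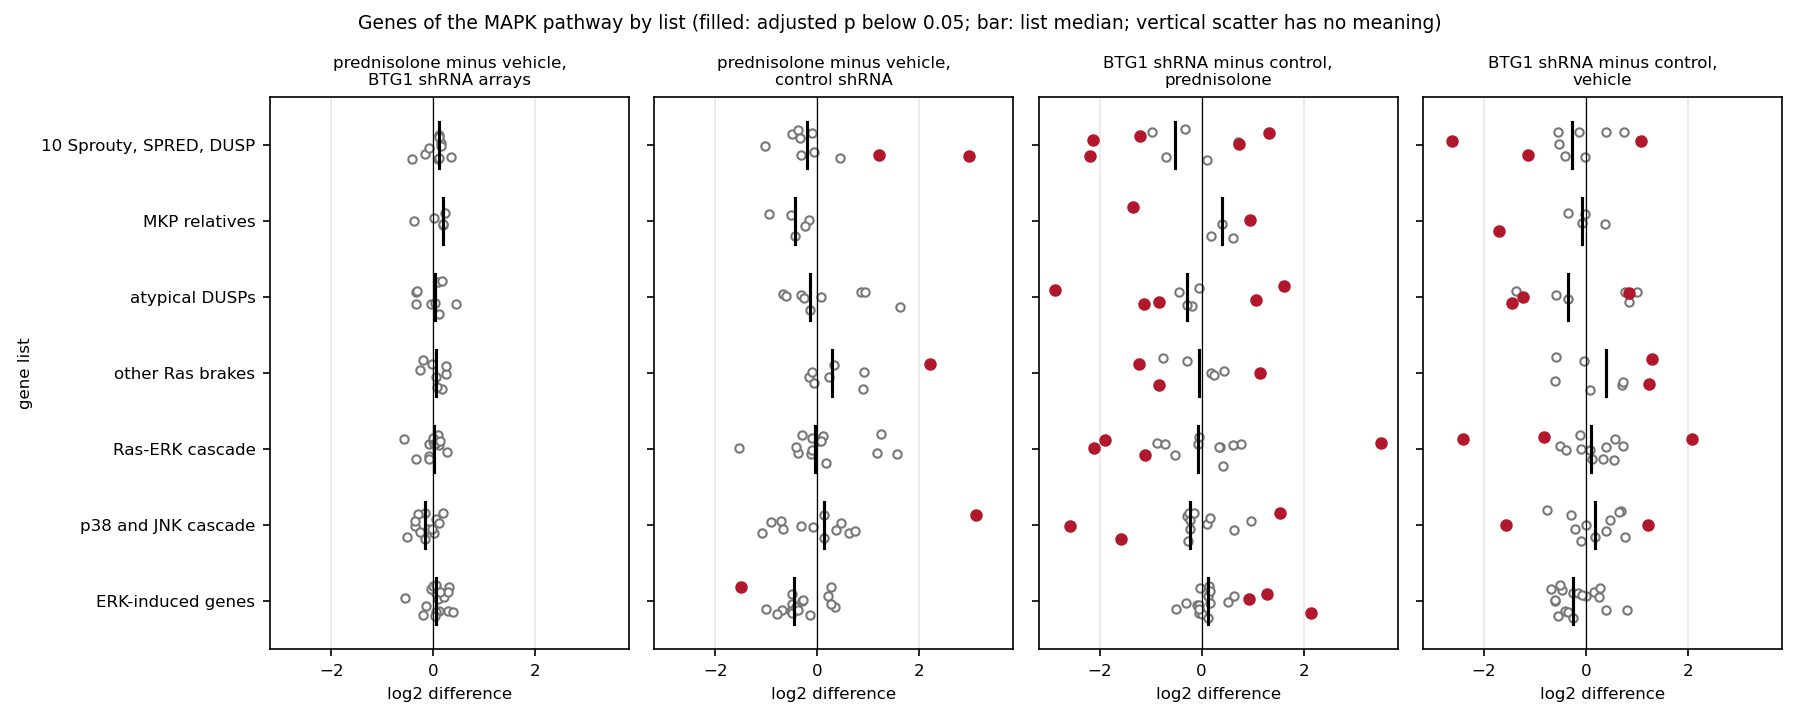
Log2 differences (horizontal axis) of the 10 brakes and of the 6 pathway lists (vertical axis) in 4 contrasts, with a point for each gene, filled where the adjusted p was below 0.05, and a bar at the list median. Prednisolone differences on the arrays labelled BTG1 shRNA stay near 0 in every list, and in control cells the ERK-induced genes have a median of -0.46 and the other MAP kinase phosphatases one of -0.44. Both medians include control vehicle array 1, which read above array 2 among clusters of low level.

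The 10 genes did not share 1 pattern over the 8 arrays. For each of the 6 members that passed in some contrast, the 2 clusters of highest Pearson correlation were taken from 7418 or 7419 clusters with 1 symbol and a mean above the table's median, as a description of arrays that share their 4 groups. SPRY1 was most like NDRG1 (r = 0.968) and KLF7 (r = 0.962), and 5 clusters exceeded 0.95. KLF7 read 7.12 and 7.44 on control prednisolone arrays, against 4.85 and 4.65 on control vehicle arrays, and stayed between 4.83 and 5.11 under the BTG1 label, which is close to the shape of SPRY1. SPRY2 was most like BCL2 (r = 0.973) and LPCAT1 (r = 0.972). DUSP10 was most like AP1S3 (r = 0.983) and VAMP4 (r = 0.981), DUSP2 like COQ4 (r = 0.994) and ATXN7L2 (r = 0.991), and SPRED2 like TMEM208 (r = 0.977) and CCT6A (r = 0.976). DUSP6 was most like UNC93B1 and ANXA2 (r = 0.997 for both), with 249 clusters above 0.95, the most of the 6.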

How the data were processed

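Total RNA was biotin labelled and hybridised to 8 exon arrays, and the core set of hg18-based probe groupings was used, per the labels. The deposited table holds 1 score per transcript cluster and array, made with RMA and Partek per the submitters' processing notes (versions not given in the sources used here). Nearly all values had lost their decimal point, and 153 of 143048 kept it, between 2.47 and 12.25. The point was put back behind the leading digit, or behind 2 digits where a value starts with 1, which gave values up to 13.4 and correlations between arrays of 0.872 to 0.995, against 0.446 to 0.587 as deposited. The restored values were treated as the authors' log2 levels, the scale that the tests were written for, and the tests were kept.

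limma 3.58.1 in R 4.3.3 was fitted to all 17881 clusters with 4 group means and 4 residual degrees of freedom, and each contrast's p-values were adjusted over the whole table with the Benjamini-Hochberg method (threshold 0.05). The fit was tested on simulated data. In contrasts of 2 groups, it recovered 16% to 26% of log2 changes of 1, 67% to 73% of changes of 2 and 98% to 100% of changes of 4. For the difference of effects, these shares were 2%, 45% and 84%. The simulated noise was independent between arrays, had the same spread in all groups, and few clusters were changed. In the data the spread differed between groups, and 14.7% and 17.5% of clusters passed between the labels. The simulated shares therefore do not measure recovery in those contrasts. Quantile normalization, centring, clusters above the median level, the contrast's arrays alone, a mean-dependent spread, the replicate number as a block and leaving out each array were tried as alternatives. GEO's platform annotation gave 14432 clusters 1 symbol, 2408 several and 1041 none. Promoter windows are RefSeq's, on GRCh38.p14. Windows were matched by symbol for 8 of the 10 genes, and DUSP4 and DUSP5 were not matched. Members and lists were chosen with earlier results of these data known. All members were named, up to 4 genes of a pathway list with the lowest p in a contrast were eligible as examples, and 2 most similar clusters for each member that passed. Groups share replicate numbers, and nothing in the labels pairs them. Deviations of same-numbered arrays correlated at 0.0072 between control prednisolone and BTG1-labelled vehicle, and at 0.26 to 0.59 for all other pairs of groups. Arrays of the same number thus shared variation in most pairs. As 1 pair was not above 0.1 and the labels name no pairing, the main fit did not use the numbers. Calls with the number as a block were more numerous and are given below.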

Additional observations from a re-analysis of the deposited data

How the results depend on the processing

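DUSP6 kept its call between the labels under every alternative and both treatments, and SPRY1 under prednisolone. Of the 10 genes, those called with prednisolone in control cells numbered 1 after quantile normalization, 1 after centring, 0 with the contrast's arrays alone and 0 above the median level, where 4 of the 10 were kept. Leaving out an array gave 0 to 2 there, 1 to 4 between the labels under vehicle, 2 to 7 under prednisolone (3 above the median level) and 0 to 1 for the difference of effects (1 after quantile normalization, 1 with a mean-dependent spread). Over all clusters, calls with prednisolone in control cells numbered 271, and 16 with the contrast's arrays alone, with 40 to 770 when an array was left out. The counts without an array were 1289 to 5958 between the labels under vehicle, 1746 to 3891 under prednisolone and 0 to 24 for the difference of effects, which had 14 after centring. With the replicate number as a block, calls were 755 with prednisolone in control cells, 4553 and 4321 between the labels, and 96 for the difference, where 1 of the 10 genes passed. The block also brought DUSP2 below the threshold in control cells (adjusted p 0.0399), SPRY4 under vehicle (0.0414) and SPRY2 under prednisolone (0.0246). Signs turned only for values that did not pass. With prednisolone in control cells, quantile normalization gave SPRY4 0.091 and SPRED2 0.012, and centring 0.028 and 0.055. Leaving out an array gave ranges of -0.66 to 0.013 for SPRY2, -0.18 to 0.038 for SPRED2 and -0.88 to 0.11 for DUSP5. On the arrays labelled BTG1 shRNA, quantile normalization gave DUSP2 0.015, and the ranges were -0.077 to 0.27 for SPRY1, -0.024 to 0.24 for SPRY4, -0.21 to 0.53 for SPRED1, -0.18 to 0.0086 for DUSP2 and -0.030 to 0.34 for DUSP4. Between the labels under vehicle, DUSP5 was 0.027 after centring (range -0.51 to 0.47) and DUSP10 0.13 after quantile normalization. Under prednisolone, DUSP4 was -0.015 after centring (range -0.073 to 0.30). For the difference of effects, SPRY2 was -0.0027 after centring (range -0.17 to 0.51), SPRY4 -0.049 after quantile normalization, and SPRED1 ranged from -0.65 to 0.081. The cause was not tested. Averaging several clusters of a gene, or using only clusters with 1 symbol, gave the same values, because each member has 1 such cluster. Signal over background is not known for these arrays, which limits SPRY4, DUSP4 and the low groups of SPRY1, DUSP6 and DUSP10.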
